A study of Mus musculus with 4 samples.

Results

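Activated microglia and lipid-associated macrophages share a set of marker genes, of which 10 are described here: Trem2, Tyrobp, Clec7a, Spp1, Igf1, Lgals3, Gpnmb, Cd63, Cd9 and Cst7. They were chosen by name from the 54532 genes in the deposited table, and each name matched 1 gene. MK-8931-treated tumour-associated macrophages (TAMs) were set against control macrophages, with 2 libraries in each group. MK-8931, or verubecestat, is a drug that blocks BACE1, a protease best known for cutting the amyloid precursor protein. All 4 libraries are labelled as sorted TAMs from xenografts in "GBM mice", sorted as CD45+, Gr1-, CD11b+ and DAPI- cells. No genotype or age is given, and nothing in the labels tells whether the 2 libraries of a group come from different animals, so a p-value measures the spread between these libraries, which may be technical. The treatment entry describes MK-8931 or vehicle given to glioma stem cells for 3 days, and the extraction entry names glioma stem cells as the source of RNA. Both entries differ from the labelled cell type, and the route by which the compound met the macrophages is not given in the sources used here.

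TREM2 is a surface receptor of myeloid cells that binds lipids and lipoproteins, including apolipoprotein E. It has no signalling tail of its own and signals through the adaptor TYROBP (DAP12), whose activation motif recruits the kinase SYK. In microglia around amyloid plaques and in macrophages that take up lipid or dead cells, TREM2 signalling accompanies a programme of genes for lysosomes, lipid handling and secreted factors, to which the other markers belong. Microglia at rest express a different set, the homeostatic genes, such as P2ry12 and Tmem119. Macrophages of glioblastoma can hold both kinds of cell and monocyte-derived macrophages.

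The libraries held 18257930 to 20179875 counts. Macrophage markers were abundant, with 12 listed genes summing to 11368 and 11395 CPM (counts scaled to library size with TMM factors) in the MK-8931 libraries and 12444 and 15370 CPM in the controls. Of 12 macrophage genes, 9 had a log2 fold change below 0 and 3 above, with a median of −0.15. By adjusted p, 1 rose and 0 fell. That gene was Itgam, which encodes the sorted antigen CD11b (log2 fold change 0.75, SE 0.14, adjusted p = 0.0485, lost without MK-8931 1 at 0.122, without MK-8931 2 at 0.248 and with library size alone at 0.0599). Lymphocyte markers (10 genes) summed to at most 1.44 CPM and neuronal markers (4 genes) to at most 0.513 CPM in any library. Neutrophil markers (20 genes) summed to 725 and 1175 CPM with MK-8931, against 130 and 114 CPM in the controls, and 14 of 15 tested rose. Monocyte markers (11 genes) summed to 7375 and 6922 CPM with MK-8931 and 7020.2 and 6608 CPM in the controls, and 5 of 11 rose. The monocyte median log2 fold change was 1.56. Elane and Ly6g, from the neutrophil list, were at 0 in every library except for Ly6g at 0.761 CPM in MK-8931 2. They differ from the tested genes of that list, of which all 15 had log2 fold changes above 0, with a median of 3.25. Markers of fibroblasts and pericytes (7 genes) summed to 652 and 1026 CPM with MK-8931, and to 665 and 298 CPM in controls 1 and 2. Control 2 thus had the highest macrophage sum and the lowest fibroblast sum. In bulk RNA of this kind, fewer cells of a type and less RNA per cell cannot be told apart.

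The 10 markers covered a wide range of levels. Per length, Spp1 was the most abundant in both groups, at 2667 and 3329 FPKM (counts scaled to gene length and library size by the authors) with MK-8931 and 3259 and 4639 FPKM in the controls. By mean FPKM it was the gene ranked 8 of all genes with MK-8931 and 4 in the controls. Lgals3 followed at 855 ± 113 FPKM with MK-8931 and 1134 ± 285 FPKM in the controls (SD, n = 2 each). Next came Tyrobp (605 ± 70.4 and 609 ± 132 FPKM), Gpnmb (268 ± 7.57 and 279 ± 33.0), Cd63 (136 ± 22.0 and 194 ± 60.5), Cd9 (135 ± 27.6 and 190 ± 36.4) and Trem2 (99.0 ± 7.10 and 123 ± 28.8), with the MK-8931 value first in each. The lowest were Clec7a at 57.5 ± 9.66 and 43.5 ± 9.98 FPKM, Igf1 at 6.91 ± 1.39 and 12.6 ± 1.69 FPKM, and Cst7 at 3.21 ± 1.11 and 5.81 ± 0.232 FPKM. The FPKM scaling constant was 0.967 times the total count in control 2, against 1.02 times in the others. This raises FPKM in control 2 slightly, relative to scaling by total count. The TMM factors act on CPM in the same direction, at 0.971 in control 2 against 1.01 in the others. The order was the same in both groups. Of neighbours in it, Cd63 and Cd9 had ranges that overlapped, in both groups, and the other neighbours lay apart. By mean FPKM Cst7 was the gene ranked 8217 with MK-8931 and 6239 in the controls. Cst7 is known for its strong induction in plaque-associated microglia, but a rank of level does not measure induction, and no resting microglia were measured here. Together the 10 genes took 0.942% and 1.12% of counts with MK-8931, and 1.09% and 1.44% in the controls. Spp1 alone made up 47.4% to 51.4% of that.

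**Figure D1:**
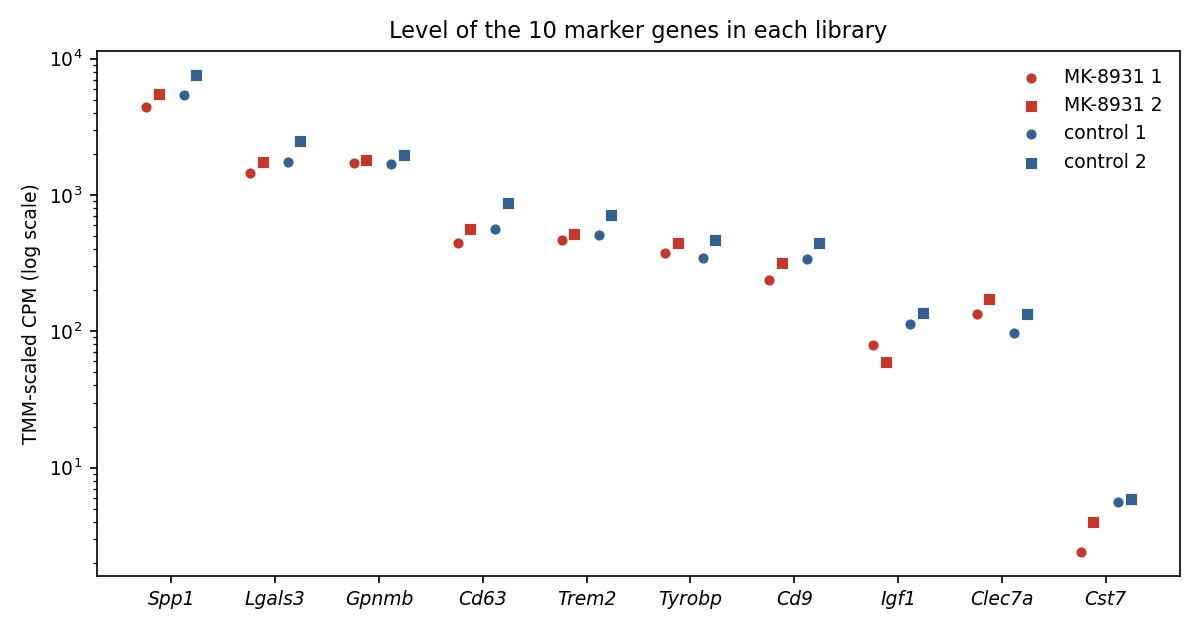
Level of each marker gene in TMM-scaled CPM, on a log axis, with 1 point per library, MK-8931 in red and control in blue (circle, replicate 1; square, replicate 2). Levels run from Spp1 at 4427 to 7625 CPM down to Cst7 at 2.41 to 5.88 CPM, and control 2 is the highest library for 9 of the 10 genes.

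Start-site sequences were looked at for features that the markers share. RefSeq promoter windows (GRCm38.p6, 250 bases before to 50 bases after the start) matched 9 of the 10 genes, in 11 windows, and Tyrobp was the gene with no entry. The AP-1-like pattern TGANTCA, in which N is any base, was in the windows of 4 genes, Trem2, Igf1, Gpnmb and Cst7. It was in 7.81% of 32817 windows of that length. The pattern is loose, with TGACTCA in Gpnmb, TGAATCA in Trem2 and Igf1, and TGATTCA in Cst7. The PU.1-like motif GAGGAAGT, searched on both strands, was in 1 gene, Spp1. It was in 1 window of Spp1 and not in the other, which starts at 104435942. Over all windows, 3.20% held it. The motif CACGTG, bound by MITF and TFE factors, was in 0 of the 9, against 7.15%. No gene held more than 1 of these motifs. A match is a description of letters and was not tested for binding. The 5 windows with a match are shown as 100 bases, because they are the stretches that set these genes apart in the search, with the motif in capitals. The strand is plus in each, and the RefSeq start used for Igf1 lies inside the interval of the gene. The first base of the motif lies 9 bases upstream of the start in Trem2 (chr17:48346342-48346441), 37 upstream in Igf1 (chr10:87861024-87861123), 8 downstream in Gpnmb (chr6:49036468-49036567), 6 upstream in Cst7 (chr2:150570359-150570458) and 113 upstream in Spp1 (chr5:104434948-104435047).
Trem2: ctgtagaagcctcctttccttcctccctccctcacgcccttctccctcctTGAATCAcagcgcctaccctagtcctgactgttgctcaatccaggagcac
Igf1: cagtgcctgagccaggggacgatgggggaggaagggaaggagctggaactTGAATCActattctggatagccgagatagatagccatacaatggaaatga
Gpnmb: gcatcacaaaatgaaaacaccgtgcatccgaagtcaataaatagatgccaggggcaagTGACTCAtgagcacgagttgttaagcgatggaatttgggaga
Cst7: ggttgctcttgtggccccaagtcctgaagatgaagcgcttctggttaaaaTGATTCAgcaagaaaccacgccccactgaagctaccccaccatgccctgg
Spp1: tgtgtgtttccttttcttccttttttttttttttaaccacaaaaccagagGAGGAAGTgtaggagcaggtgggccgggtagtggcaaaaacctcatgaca
The 4 genes with TGANTCA did not share a fold change, with log2 values of −0.86 for Igf1, −0.85 for Cst7, −0.31 for Trem2 and −0.05 for Gpnmb in MK-8931 over control.

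MK-8931 was compared with control over all genes, and 0 of the 10 markers rose and 0 fell (edgeR's quasi-likelihood test, adjusted p under 0.05 over 13932 genes). All 10 passed the filter on low counts. Over all tested genes, 0.861% rose and 0.136% fell. At an unadjusted p under 0.05 there were 4 markers, Igf1, Cd9, Cd63 and Cst7, beside 10.8% of all tested genes. DESeq2 called 1 marker, Igf1, as lower (adjusted p = 9.2e-04), beside 95 lower and 242 higher over all genes. With limma-voom 0 markers were called, beside 30 lower and 124 higher over all genes. With no filter on low counts 3 were lower, in a fit that called 176 genes lower and 366 higher overall among all genes. A fit that blocks on replicate number called 5 as lower and 1 as higher, beside 275 lower and 468 higher over all genes. Of the 10 fitted log2 fold changes, 9 were below 0 and 1, that of Clec7a, above. Their median was −0.39, against 0.00 over all tested genes, and it was −0.12 without control 2 and −0.63 without control 1. Both MK-8931 libraries were below both controls in 4 markers (20.0% of all tested genes) and above both in 1 (21.2%), and the groups overlapped in the other 5.

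**Figure D2:**
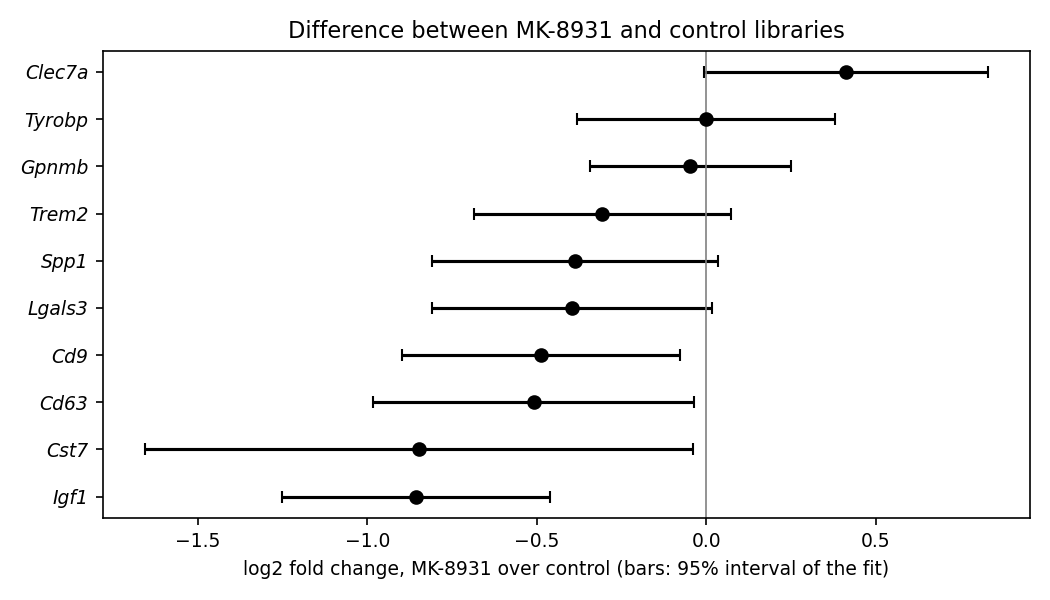
Fitted log2 fold change of each marker gene, MK-8931 over control, with its 95% interval from the edgeR fit, ordered from the highest to the lowest. The interval of Igf1, from −1.25 to −0.46, lies farthest from 0, and those of Clec7a, Tyrobp, Gpnmb, Trem2, Spp1 and Lgals3 include 0.

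Among the receptors, Trem2 (chromosome 17, 48346401 to 48354147, GRCm38, plus strand) had 468 and 519 CPM with MK-8931 and 512 and 709 CPM in the controls. Control 2 was higher than the other 3 libraries, which lay close together, so the groups overlapped. Its log2 fold change was −0.31 (SE 0.17, adjusted p = 0.588). It was −0.05 without control 2 (adjusted p = 0.986) and −0.53 without control 1 (0.0185). Tyrobp, the adaptor (chromosome 7, 30413760 to 30417585, plus strand), had 373 and 440 CPM with MK-8931 and 346 and 467 CPM in the controls. The MK-8931 values lay between the controls, and the fitted fold was 1.00 with a 95% interval from 0.768 to 1.30 (adjusted p = 1.00). The log2 fold change was 0.23 without control 2 and −0.21 without control 1. Within each library, where scaling cancels, the ratio of Trem2 to Tyrobp counts was 1.26 and 1.18 with MK-8931 and 1.48 and 1.52 in the controls. These ratios, of a pair chosen after the values were seen, did not overlap. An exact two-sided permutation test gave p = 0.333, the smallest that 2 against 2 allows, so it cannot decide whether they differ.

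Clec7a encodes dectin-1, a lectin receptor for beta-glucans that signals through SYK and CARD9 and is also made by monocytes, dendritic cells and neutrophils. The gene lies on chromosome 6, 129461591 to 129472779, minus strand, and the deposited table lists it as a polymorphic pseudogene. It had 135 and 171 CPM with MK-8931 and 96.8 and 133 CPM in the controls. It was the marker with both MK-8931 libraries above both controls, although MK-8931 1 and control 2 were nearly level. The log2 fold change was 0.41 (SE 0.18, adjusted p = 0.477), or 0.21 without MK-8931 2, 0.19 without control 1 and 0.66 without control 2, and it was past the threshold in the last fit (0.0490). Its adjusted p ran between 0.0214 and 0.913 over the 10 alternative fits. The ratio of Clec7a to Trem2 counts was 0.287 and 0.330 with MK-8931 and 0.189 and 0.188 in the controls, a pair of values chosen after they were seen. The ratio was alike in both controls although each gene was higher in control 2. Neutrophil markers were higher with MK-8931 too (725 and 1175 CPM, against 130 and 114 CPM in the controls), although the sort was for Gr1- cells, a gate meant to remove neutrophils. Dendritic cell markers (11 genes) summed to 80.8 and 93.3 CPM with MK-8931 and 64.6 and 72.4 CPM in the controls, and 1 of 11 rose. Their median log2 fold change was 1.09, or 0.59 without MK-8931 2, with 9 of 11 above 0. Of 11 monocyte genes 5 rose and 10 had a log2 fold change above 0, with a median of 1.56. The monocyte sums overlapped between the groups. The part of these cells in the Clec7a values was not tested.

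Genes that act with these receptors were read from 2 lists. Of 17 tested genes of the TREM2 complex, its partners and signalling, 0 rose and 0 fell, with 13 log2 fold changes above 0 and a median of 0.13. The smallest p-values belonged to Apoe, which encodes the lipoprotein component that TREM2 binds, at −0.59 (SE 0.15, adjusted p = 0.141), and to Ptpn6, which encodes the phosphatase SHP-1, at 0.48 (SE 0.14, adjusted p = 0.204). Apoe stood at 6226 and 6719 CPM with MK-8931 and at 8491 and 11026 CPM in the controls. Of 7 tested genes of dectin signalling and the neighbouring C-type lectins, with Clec7a among them, 0 rose and 0 fell. All 7 log2 fold changes were above 0, with a median of 0.42. Some of the 7 had few counts, at most 19 in any library, and the 2 lists share genes, Card9 among them. Clec12a, an inhibitory lectin receptor, had 0.42 (SE 0.14, adjusted p = 0.285) and Card9, the adaptor downstream of dectin-1, 0.40 (SE 0.13, adjusted p = 0.285).

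Of the secreted markers, Spp1 encodes osteopontin, a phosphoprotein that binds CD44 and integrins (chromosome 5, 104435118 to 104441050, plus strand). It had 4427 and 5531 CPM with MK-8931 and 5401 and 7625 CPM in the controls. MK-8931 2 and control 1 were level, with MK-8931 1 below them and control 2 above. The log2 fold change was −0.39 (SE 0.19, adjusted p = 0.521), and it was −0.12 without control 2. It was −0.62 when control 1 was left out and −0.25 when MK-8931 1 was. A predicted transcript, Gm42793, overlaps Spp1 on the same strand and was given 402 and 241 counts with MK-8931 and 273 and 222 in the controls, few beside the 86301 to 149220 counts of Spp1. Of 7 tested receptors of osteopontin, 0 rose and 0 fell, with a median log2 fold change of −0.15, or −0.092 without control 1. Cd44, the hyaluronan and osteopontin receptor, had 0.43 (SE 0.12, adjusted p = 0.176), and the integrin gene Itga9 had −0.43 (SE 0.13, adjusted p = 0.237).

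Igf1 encodes insulin-like growth factor 1, a growth and survival factor made by activated microglia and by fibroblasts (chromosome 10, 87858265 to 87937042, plus strand). It had 78.7 and 59.2 CPM with MK-8931 and 114 and 136 CPM in the controls, so both MK-8931 libraries were below both controls. The fitted fold was 0.552 (95% interval 0.420 to 0.726), or −0.86 on the log2 scale (SE 0.17), and it missed the threshold at adjusted p = 0.0634. The authors' deposited table gives Igf1 a log2 fold change of −0.87 with an adjusted p of 9.3e-04, and no other marker in that table has an adjusted p under 0.05. Of 22381 genes with an adjusted p there, 242 were higher and 94 lower at 0.05. Its Igf1 values are nearly those of the DESeq2 fit here (−0.87, adjusted p = 9.2e-04), so they are not separate support. Igf1 was past the threshold in 6 of 10 alternative fits, with DESeq2 (9.2e-04), with no filter on low counts (3.7e-06), with the replicate number as a block (0.0102), and without control 1 (5.2e-05), control 2 (0.0301) or MK-8931 1 (0.0320). Its adjusted p was 0.344 without MK-8931 2. Markers of fibroblasts and pericytes summed to 652 and 1026 CPM with MK-8931 and 665 and 298 CPM in the controls. The part of these cells in the Igf1 values was not tested. The antisense gene Igf1os, which overlaps the start of Igf1, had 0 and 0 counts with MK-8931 and 5 and 5 in the controls.

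The other genes of the IGF axis were set beside Igf1. Of 10 tested, Igf1 included, 0 rose and 0 fell. The median log2 fold change was 0.23, which became −0.04 without control 2, 0.35 without control 1, 0.08 without MK-8931 1 and 0.13 without MK-8931 2. Next to Igf1 the smallest p belonged to Igf1r, the receptor of the ligand. It had 33.3 and 27.9 CPM with MK-8931 and 17.0 and 11.1 CPM in the controls, with no overlap, in the opposite direction to Igf1 (log2 fold change 1.12, SE 0.23, adjusted p = 0.0674). Igf2 had no count in any library.

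Lgals3 encodes galectin-3, a galactoside-binding lectin that macrophages secrete and that gathers at damaged lysosomes (chromosome 14, 47367751 to 47386160, plus strand). It had 1450.4 and 1752 CPM with MK-8931 and 1743 and 2475 CPM in the controls. As for Spp1, MK-8931 2 and control 1 were level and control 2 stood above the rest. The log2 fold change was −0.40 (SE 0.18, adjusted p = 0.491), and it was −0.12 without control 2 and −0.64 without control 1. Of 4 other tested genes of galectins and their binding protein, 0 rose and 0 fell, with log2 fold changes from −0.29 for Lgals1 to 0.07 for Lgals3bp. Lgals1 (adjusted p = 0.677) and Lgals9 (−0.16, adjusted p = 0.757) had the smallest p-values.

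Gpnmb encodes a transmembrane glycoprotein of lysosomes, and its transcription is known to follow MITF and TFE factors (chromosome 6, 49036546 to 49070929, plus strand). It was the steadiest of the abundant markers, at 1723 and 1795 CPM with MK-8931 and 1672 and 1962 CPM in the controls. The MK-8931 libraries lay between the controls, and the fitted fold was 0.968 (95% interval 0.787 to 1.19, adjusted p = 0.950). Leaving out control 2 gave a log2 fold change of 0.07, and leaving out control 1 gave −0.17.

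Cd63 and Cd9 encode tetraspanins, membrane proteins of late endosomes and exosomes for CD63 and of the surface and exosomes for CD9. Cd63 (chromosome 10, 128900989 to 128912822, plus strand) had 445 and 561 CPM with MK-8931 and 562 and 871 CPM in the controls. Both MK-8931 libraries were below both controls, though MK-8931 2 and control 1 differed by less than 1 CPM. The log2 fold change was −0.51 (SE 0.21, adjusted p = 0.414), and it was −0.16 without control 2 and −0.80 without control 1. Cd9 (chromosome 6, 125460266 to 125494791, minus strand) had 237 and 318 CPM with MK-8931 and 338 and 441 CPM in the controls, again without overlap. Its log2 fold change was −0.49 (SE 0.18, adjusted p = 0.347), and it was −0.29 without control 2 and −0.30 without MK-8931 1. The antisense gene Gm28809 overlaps Cd9 and had 79 and 49 counts with MK-8931 and 15 and 27 in the controls, against 4627 to 8622 counts for Cd9, and without a stated strand setting reads of the 2 genes cannot be told apart. Of 9 other tested tetraspanin genes, 0 rose and 0 fell, and their median log2 fold change was −0.06, or 0.05 without control 2, −0.13 without control 1, −0.02 without MK-8931 1 and −0.12 without MK-8931 2. Tspan4 (−0.24, adjusted p = 0.674) and Tspan32 (0.22, adjusted p = 0.818) had the smallest p-values.

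Cst7 encodes cystatin F, an inhibitor of lysosomal cysteine cathepsins and of cathepsin C in particular (chromosome 2, 150570415 to 150578944, plus strand). It had 47 and 73 counts with MK-8931 and 104 and 115 counts in the controls. Both MK-8931 libraries were lower, but at this depth the fitted log2 fold change of −0.85 had an SE of 0.36 (adjusted p = 0.434), the widest of the 10 intervals. It was −0.54 without MK-8931 1 and −1.26 without MK-8931 2. Of 8 tested cystatins and cathepsins, Cst7 included, 0 rose and 0 fell, with a median of −0.06. That median was 0.11 once control 2 was left out and −0.24 once control 1 was, and it was 0.02 without MK-8931 1 and −0.21 without MK-8931 2. Ctsc, which encodes cathepsin C, had 1416 and 1414 CPM with MK-8931 and 1108 and 1081 CPM in the controls (log2 fold change 0.37, SE 0.12, adjusted p = 0.260).

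The fold between the 2 controls was larger than the fitted fold between groups in every marker but Igf1, Cd9 and Cst7. Control 2 was above control 1 in all 10 markers, by 1.05 times for Cst7 to 1.55 times for Cd63 (median 1.36), while it was the higher control in 48.7% of all tested genes. It was the highest of the 4 libraries in 9 of 10 markers, against 29.9% of all tested genes. Likewise MK-8931 2 was above MK-8931 1 in 9 markers, by up to 1.65 times for Cst7, with Igf1 as the exception at 0.752 times, beside 50.9% of all tested genes. Macrophage markers as a whole (11368 and 11395 CPM with MK-8931, 12444 and 15370 CPM in the controls) were also highest in control 2, and their part in the marker values was not tested. Without control 1 the log2 fold changes of Trem2, Spp1 and Lgals3 were −0.53, −0.62 and −0.64, and without control 2 −0.05, −0.12 and −0.12. For Cd63 and Cd9 they were −0.80 and −0.67 without control 1, and −0.16 and −0.29 without control 2. Igf1 had −0.99 and −0.72 in these 2 fits, and Clec7a 0.19 and 0.66.

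**Figure D3:**
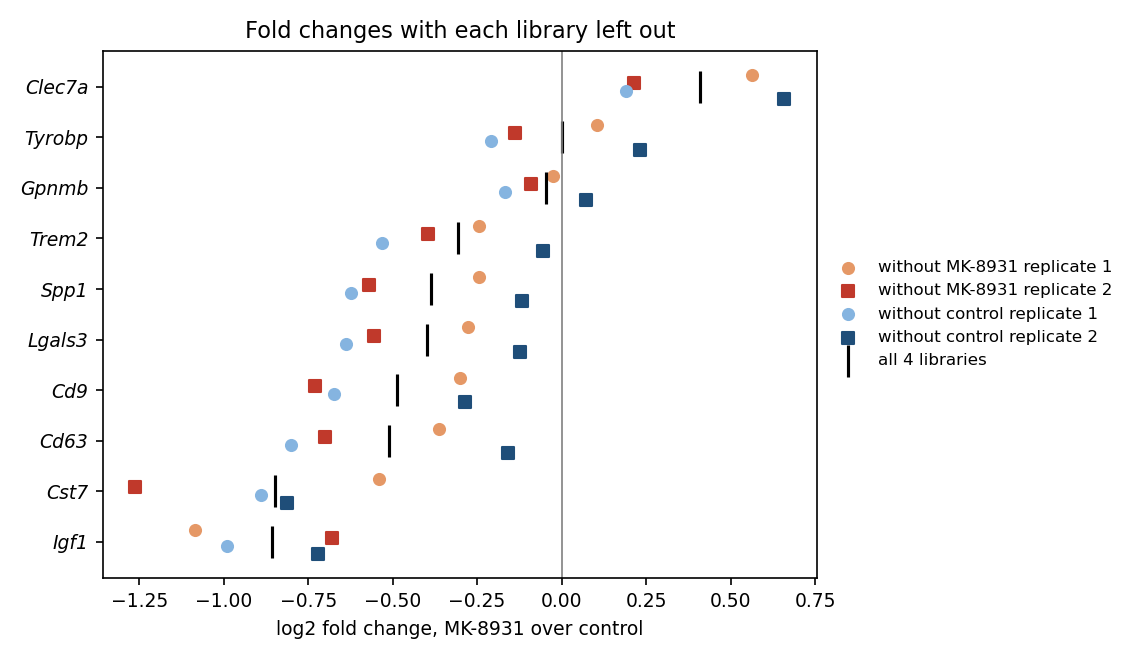
Log2 fold change of each marker gene, MK-8931 over control, with all 4 libraries (vertical tick) and with each library left out in turn. Igf1 stays between −1.09 and −0.68 in the 4 fits, while Cd63 moves to −0.80 without control 1 and −0.16 without control 2, and Tyrobp and Gpnmb take both signs.

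Ratios of counts within a library do not depend on how the libraries are scaled, and they were taken for 7 pairs, Trem2 over Tyrobp and Clec7a over Trem2 among them, chosen after the values were seen. The groups did not overlap in any of the 7, but pairs chosen this way, which also share genes, cannot be counted as support. With Gpnmb as the denominator, Igf1 stood at 0.0457 and 0.0330 in the MK-8931 libraries and at 0.0679 and 0.0694 in the controls. Its ratio was alike in the 2 controls, where the levels of both genes differed. Spp1 stood at 2.57 and 3.08 times Gpnmb with MK-8931 and at 3.23 and 3.89 times in the controls. Of these ratios, those of MK-8931 2 and control 1 were close. The exact two-sided permutation p is 0.333 for each pair of genes, the smallest that 2 libraries against 2 allow.

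**Figure D4:**
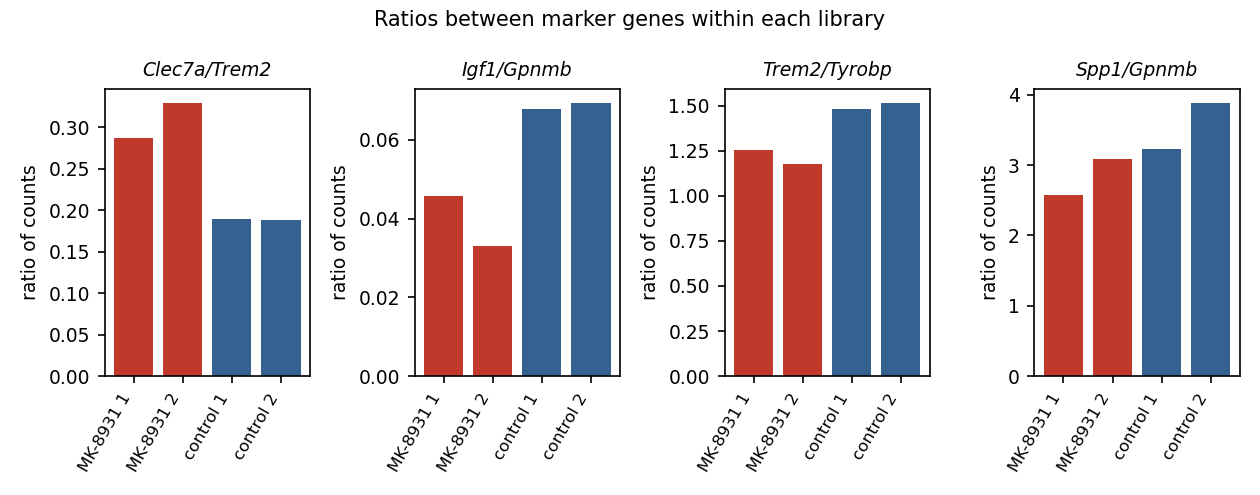
Ratio of counts between pairs of marker genes within each library, with MK-8931 libraries (red) left of controls (blue) and axes starting at 0. Clec7a over Trem2 is 0.287 and 0.330 with MK-8931 and 0.189 and 0.188 in the controls, and Igf1 over Gpnmb is 0.0457 and 0.0330 with MK-8931 and 0.0679 and 0.0694 in the controls.

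Another 33 genes of the activated microglia and lipid-associated programme were measured, and 2 rose and 0 fell. Lpl, the lipoprotein lipase that releases fatty acids from lipoproteins, had 150 and 152 CPM with MK-8931 and 92.7 and 91.0 CPM in the controls. Its values were close within each group and apart between groups (log2 fold change 0.72, SE 0.12, adjusted p = 0.0360), but the call was lost without MK-8931 1 (0.159) or MK-8931 2 (0.242). Mmp12, the macrophage elastase, was the other gene, at 851 and 1158 CPM with MK-8931 and 448 and 463 CPM in the controls (log2 fold change 1.14, SE 0.16, adjusted p = 0.0141), and its adjusted p was 0.0722 once MK-8931 2 was left out. The list had 16 log2 fold changes above 0 and 17 below, with a median of −0.01 (0.04 without control 2), against −0.39 for the 10 markers and 0.00 for all tested genes. Over the 87 tested genes of all related lists, markers left out, 2 rose and 0 fell, and the median was 0.03. Homeostatic microglial genes, the other microglial state, had 0 of 14 higher and 0 lower and a median of −0.26. Among them Gpr34, a lysophospholipid receptor, had −1.13 (SE 0.23, adjusted p = 0.0609) and the purine receptor gene P2ry12 had −0.66 (SE 0.16, adjusted p = 0.113). The median of the homeostatic list was −0.37 without control 1 and −0.13 without control 2, as that of the 10 markers was −0.63 and −0.12.

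**Figure D5:**
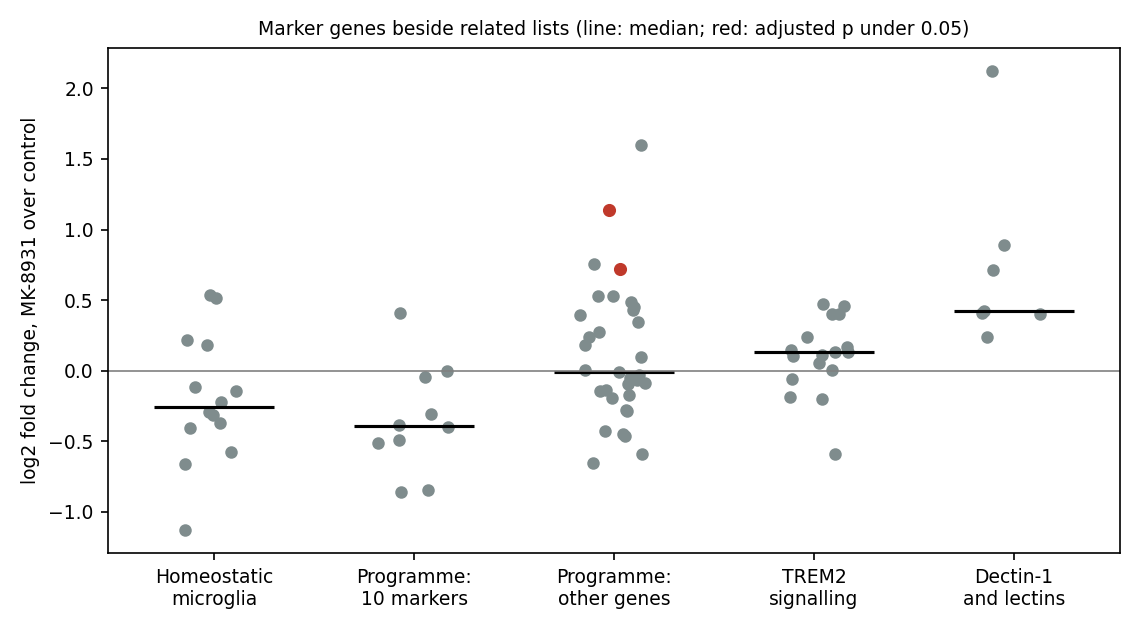
Fitted log2 fold changes, MK-8931 over control, of the tested genes of 5 lists, with 1 point per gene, the median as a line and genes past the threshold in red. Of the lists shown, the other programme genes alone hold genes past it, Lpl and Mmp12, and medians run from −0.39 for the 10 markers to 0.42 for dectin signalling and lectins.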

How the data were processed

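Raw counts per gene and FPKM values were deposited by the authors for 4 libraries, per the file headers. The FPKM values equal the count over gene length and a constant per library. That constant was 1.02 times the library's total count in 3 libraries and 0.967 times in control 2. FPKM in control 2 is thus slightly higher than scaling by total count would give. Tests and CPM used the counts with TMM factors, which were 0.971 in control 2 and 1.01 in the other libraries. CPM in control 2 is therefore raised in the same direction. Aligner, counter and strand setting: not given in the sources used here. The submitters' processing notes name CASAVA and mm9, but the coordinates match GRCm38: 98.2% of 54495 gene identifiers shared with GENCODE M21 have the same position, all 10 markers included.

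Counts were fitted with edgeR 4.0.16 (filterByExpr with a minimum count of 10, TMM, robust quasi-likelihood F test, two-sided, Benjamini-Hochberg over 13932 genes, threshold 0.05), after a check on simulated counts. SE is the absolute log2 fold change over the square root of F. CPM uses TMM-scaled library sizes. DESeq2 1.42.0 and limma 3.58.1 served as alternatives. Counts of the 2 controls, and of the 2 MK-8931 libraries, were not repeats of one library, as chi-square over degrees of freedom was 26.8 and 15.7. The marker genes and related lists were chosen with earlier results of these data known, and no test was made over a list. All 10 markers are named. From a list, at most 3 genes with the smallest p among those that passed in a direction are named, or the 2 with the smallest p where none passed. Elane, Ly6g and Igf2 are named besides, for their low or absent counts.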

Additional observations from a re-analysis of the deposited data

How the results depend on the processing

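All genes higher and lower numbered 120 and 19, against 85 to 520 and 10 to 243 with a library left out. Markers higher and lower numbered 0 and 0, against 0 to 1 and 0 to 6, and genes of the related lists 2 and 0, against 0 to 7 and 0 to 8. With DESeq2 the counts were 242 and 95 over all genes, 1 marker lower, and 6 and 3 in the related lists. With no filter on low counts they were 366 and 176, 3 markers lower (Igf1, Cd63 and Cd9), and 8 and 4. With limma-voom 30 genes were lower. The cause of these shifts was not tested. RLE size factors and library size alone left 0 markers past the threshold.

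With the replicate number as a block, counts were 468 and 275 over all genes, 1 marker higher (Clec7a) and 5 lower (Spp1, Igf1, Lgals3, Cd63 and Cd9), and 19 and 6 in the related lists. The labels do not state what a number shares, and same-numbered libraries deviated together with a correlation of 0.197 across genes, so 2 pairs do not establish a pairing.

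Tyrobp, with a fold of 1.00, took a positive log2 fold change with library size alone (0.031), limma-voom (0.010) and the replicate block (0.011), and ranged between −0.21 and 0.23 with a library left out. Gpnmb ranged between −0.17 and 0.072 with a library left out, above 0 without control 2. The other 8 markers kept their sign in all 10 alternatives.

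Each group of 2 libraries limits precision: the 95% interval of a marker's fold spans at least 1.23 times either way, and 1.75 times for Cst7.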
